A study of Drosophila melanogaster with 2 samples.

Results

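The aminoacyl-tRNA synthetase genes were 33 of the 13945 protein-coding genes annotated on the 6 chromosome arms of Drosophila melanogaster. They were picked out by symbol: the short name of an amino acid followed by RS (18 genes with GluProRS, here called cytoplasmic forms) or by RS-m (15 genes, here called mitochondrial forms). The rule itself reads symbols and no measured value, but the members were chosen with earlier results of these data known. The assignment to cytosol or mitochondrion rests on the symbol. Binding of the CG33017 protein was measured by chromatin immunoprecipitation and sequencing (ChIP-seq) in whole adult males of 1 transgenic fly line. The line stably expressed CG33017 carrying green fluorescent protein (GFP) at its C-terminal end, the age of the flies was unknown, and all cell types of the animal were mixed. An anti-GFP antibody was used according to the description in the labels, whose antibody field instead names CG33017, and chromatin was sheared by sonication. There were 2 biological replicates of a single group, by their numbers in the labels, so the comparisons are between genes and between replicates, and an untagged line was not analysed here.

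Aminoacyl-tRNA synthetases attach each amino acid to its matching transfer RNA (tRNA), the charged molecule that the ribosome then reads against the messenger RNA. Animal cells carry cytoplasmic enzymes for the translation of nuclear messages and nuclear-encoded, imported enzymes for the translation of mitochondrial messages. A gene that encodes both enzymes cannot be told apart by its symbol and is counted here as a cytoplasmic form. GluProRS is a fused enzyme that charges both glutamate and proline tRNAs. Because translation runs in every tissue, these genes are usually counted among the housekeeping genes. A peak below is an interval where the precipitate was enriched over a control in the authors' lists, its summit is the deposited point of highest enrichment, and a gene is called bound where a summit lay within 500 bp of any of its transcription start sites (TSSs). The signal of a peak was computed by the authors, and here it only ranks peaks within a list, where rank 1 is the highest. The IDR list, filtered by the authors on the irreproducible discovery rate, held 4867 peaks, which were also the 4867 strongest of the pooled list. The pooled list and each replicate's own list held 30000 peaks. The read depth behind them is unknown.

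The DNA under the strongest synthetase summits was mostly rich in A and T. The sequences are the exon-free parts of windows reaching 75 bp to either side of the summit at 5 of the bound synthetase genes of higher signal and, last, at AspRS-m, the strongest synthetase gene just outside the IDR list. They were read from the NCBI Release 6 sequence (dm6) and are written 5′ to 3′ along the strand of the gene. Capitals mark matches to the searched motifs on either strand: TATAAA (the TATA letters), TATCGATA (the DNA replication-related element, DRE) and CATCNCTA (1 form of the core of core promoter motif 7).
IleRS (chr3L:22288397-22288547, plus strand): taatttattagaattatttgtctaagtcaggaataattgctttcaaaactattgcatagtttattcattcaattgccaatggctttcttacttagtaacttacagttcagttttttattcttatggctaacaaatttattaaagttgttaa
GluProRS (chr3R:23958463-23958613, minus strand): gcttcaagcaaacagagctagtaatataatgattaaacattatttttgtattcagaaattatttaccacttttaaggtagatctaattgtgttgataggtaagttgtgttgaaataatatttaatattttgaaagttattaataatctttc
ThrRS (chr2L:12103450-12103600, plus strand): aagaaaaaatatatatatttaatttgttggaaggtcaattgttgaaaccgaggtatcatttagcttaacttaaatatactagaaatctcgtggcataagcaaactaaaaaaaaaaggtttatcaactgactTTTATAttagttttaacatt
ProRS-m (chr3L:2651927-2652077, minus strand): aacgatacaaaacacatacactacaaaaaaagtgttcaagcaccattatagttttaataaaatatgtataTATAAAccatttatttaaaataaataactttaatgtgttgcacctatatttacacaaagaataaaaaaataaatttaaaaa
AlaRS (chr2L:8381765-8381820, minus strand): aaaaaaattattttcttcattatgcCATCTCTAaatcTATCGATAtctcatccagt
AspRS-m (chr2L:16826965-16827077, plus strand): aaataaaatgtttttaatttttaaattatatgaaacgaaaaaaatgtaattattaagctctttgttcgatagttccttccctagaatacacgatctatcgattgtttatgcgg
The IleRS and GluProRS windows had a GC content of 24.5% and 23.2% and no match to any of the motifs searched. The summit is base 76 of each 151 bp window. ThrRS had the TATA letters between the summit and the gene, and in ProRS-m they covered the summit itself. The AlaRS stretch of 56 bp lay just before the TSS of AlaRS, beside a summit that fell in the neighbouring exon of CG13392, and held a DRE and a motif 7 core 4 bp apart. SerRS, the synthetase gene of highest signal, had its window inside annotated exons, and it is described by its values alone, as is ValRS, whose signal lay between those of ThrRS and ProRS-m.

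Of the 33 synthetase genes, 14 (42.4%) had an IDR summit within 500 bp of a TSS. The same rule called 3314 of the 13945 protein-coding genes (23.8%). The bound genes were 9 of the 18 cytoplasmic forms (50%) and 5 of the 15 mitochondrial forms (33.3%). In the longer pooled list 27 synthetase genes (81.8%) had a summit, against a background of 61.3% of protein-coding genes. There the cytoplasmic forms stood at 17 of 18 (94.4%) and the mitochondrial forms at 10 of 15 (66.7%). The share of cytoplasmic forms was thus above the share of all genes in both lists, and the share of mitochondrial forms was nearer to it. With a peak interval required to overlap a TSS, the order of the forms turned: 5 of 18 cytoplasmic forms (27.8%) and 5 of 15 mitochondrial forms (33.3%) were bound, against 15.6% of all genes. With each pooled summit given only to the gene of the nearest TSS, 17 synthetase genes (51.5%) kept one. The share of all genes under that rule was not counted in the pooled list. None of these differences was tested.

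In each replicate taken alone the synthetase genes as a whole and the cytoplasmic forms stood above all genes. The mitochondrial forms stood below all genes among the top peaks of replicate 1 and above them in the top peaks of replicate 2 and in both whole lists. Among the 4867 strongest peaks of each replicate's own list, replicate 1 had a summit at 11 synthetase genes (33.3%) against a background of 22.5%, and replicate 2 at 12 (36.4%) against 24.1%. As a mean over the replicates the share was 34.85% ± 2.143 (SD, n = 2) for synthetase genes and 23.32% ± 1.116 (SD, n = 2) for all protein-coding genes. The same 8 cytoplasmic forms (44.4%) were bound in both replicates at this length, all of them in the IDR list. Of all protein-coding genes, 18.9% were bound in both top lists. Mitochondrial forms numbered 3 in replicate 1 (20%) and 4 in replicate 2 (26.7%), with 2 in both (13.3%), a mean of 23.33% ± 4.714 (SD, n = 2). That mean differed from the mean of all genes by less than the spread between replicates. In the whole replicate lists, 28 synthetase genes (84.8%) were bound in replicate 1 against 61.0% of all genes, and 29 (87.9%) in replicate 2 against 59.2%. Each of these whole lists held 11 of the 15 mitochondrial forms (73.3%). Both whole lists held 27 of the synthetase genes (81.8%) and 52.7% of all protein-coding genes.

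**Figure D1:**
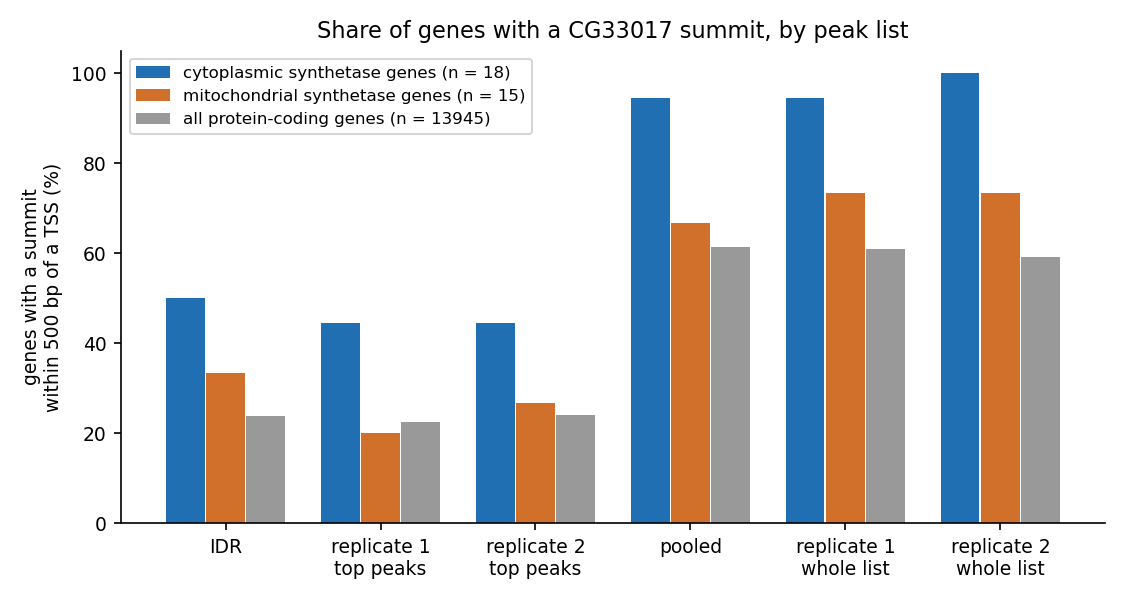
Share of genes (%, axis from 0) with a summit within 500 bp of a TSS in the IDR list, in the pooled list and in each replicate's own list, for cytoplasmic forms (18 genes), mitochondrial forms (15 genes) and all protein-coding genes. In every list shown the cytoplasmic forms stood above all genes, from 44.4% in the top peaks of each replicate to 100% in the whole list of replicate 2.

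Among the cytoplasmic forms, SerRS (FBgn0031497), which charges serine tRNA, had the highest signal of all synthetase genes. Its IDR peak (2L, 3037260 to 3037527) had a signal of 455.3 and rank 456, with a signal of 232.6 at rank 462 in replicate 1 and of 224 at rank 459 in replicate 2. The summit lay 13 bp downstream of the TSS, in the 5′ UTR of SerRS, and was the only one of the 14 that was not upstream of the synthetase TSS. IleRS (FBgn0027086), the isoleucine enzyme, followed with a signal of 327.5 and rank 784 for a peak of 135 bp (3L, 22288450 to 22288584). Its signal was 135.5 at rank 1185 in replicate 1 and 194.1 at rank 594 in replicate 2, so its place among peaks was less even than that of SerRS. The IleRS summit lay 193 bp upstream of the TSS, in the sequence printed first.

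GluProRS (FBgn0005674), the fused glutamate and proline enzyme, and ThrRS (FBgn0027081), the threonine enzyme, stood next to each other in the pooled ranking. GluProRS had a signal of 240.5 and rank 1310 (3R, 23958336 to 23958739), with ranks 1420 and 1175 in replicates 1 and 2. ThrRS had a signal of 239.6 and rank 1323 (2L, 12103411 to 12103593), with ranks 1687 and 1256. GluProRS was ahead of ThrRS in the pooled list and in both replicates, by a margin that was not tested. Their summits lay 147 bp and 226 bp upstream of the TSS, both in intergenic DNA.

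ValRS, AlaRS and AsnRS, the enzymes for valine, alanine and asparagine, formed a middle set. ValRS had a signal of 201.5 (rank 1774, and 2005 and 2033 in the replicates) with a summit 341 bp upstream, the farthest of the 14. AlaRS had a signal of 191.9 (rank 1920, and 1976 and 1625 in the replicates), and AsnRS had 183.5 (rank 2071, and 3527 and 1561 in the replicates). Both had their summit 60 bp upstream of the TSS. All 3 were within the strongest 4867 peaks of each replicate. The AlaRS summit fell in the 3′ UTR of CG13392, the neighbouring gene.

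MetRS and AspRS, the methionine and aspartate enzymes, had the lowest signals of the bound cytoplasmic forms. MetRS had a signal of 128.8 and rank 3591, with nearly equal ranks of 3539 and 3201 in the replicates. AspRS had a signal of 113.3 and rank 4356. Its ranks of 5576 and 5234 lay outside the strongest 4867 of both replicates, so AspRS entered the IDR list on the pooled signal but neither replicate's list of equal length. The AspRS peak (2R, 12879788 to 12880191) also stood apart in place. It lay in an intron of both AspRS and Nmda1, 294 bp upstream of an internal alternative TSS of AspRS, and no summit of the IDR list was within 500 bp of the canonical TSS.

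Of the 5 bound mitochondrial forms, ProRS-m had the highest signal, 192.2 at rank 1918 (3L, 2651800 to 2652203), and its ranks of 2111 and 2471 kept it in the top list of both replicates. CysRS-m, the mitochondrial cysteine enzyme, had a signal of 172.3 and rank 2292, with ranks 4052 and 1777. These were the 2 mitochondrial forms found in both top lists. ArgRS-m had a signal of 139.7 and rank 3179, and it was higher in replicate 1 (signal 85.8, rank 2527) than in replicate 2 (signal 52.78, rank 5206). PheRS-m had 122.1 at rank 3919 and went the other way, with a signal of 36.17 at rank 8891 in replicate 1 and of 80.32 at rank 2658 in replicate 2. LeuRS-m, the last synthetase gene inside the IDR list, had 106.2 at rank 4784, with ranks 6110 and 3969. ArgRS-m, PheRS-m and LeuRS-m were thus each in the top list of a single replicate.

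**Figure D2:**
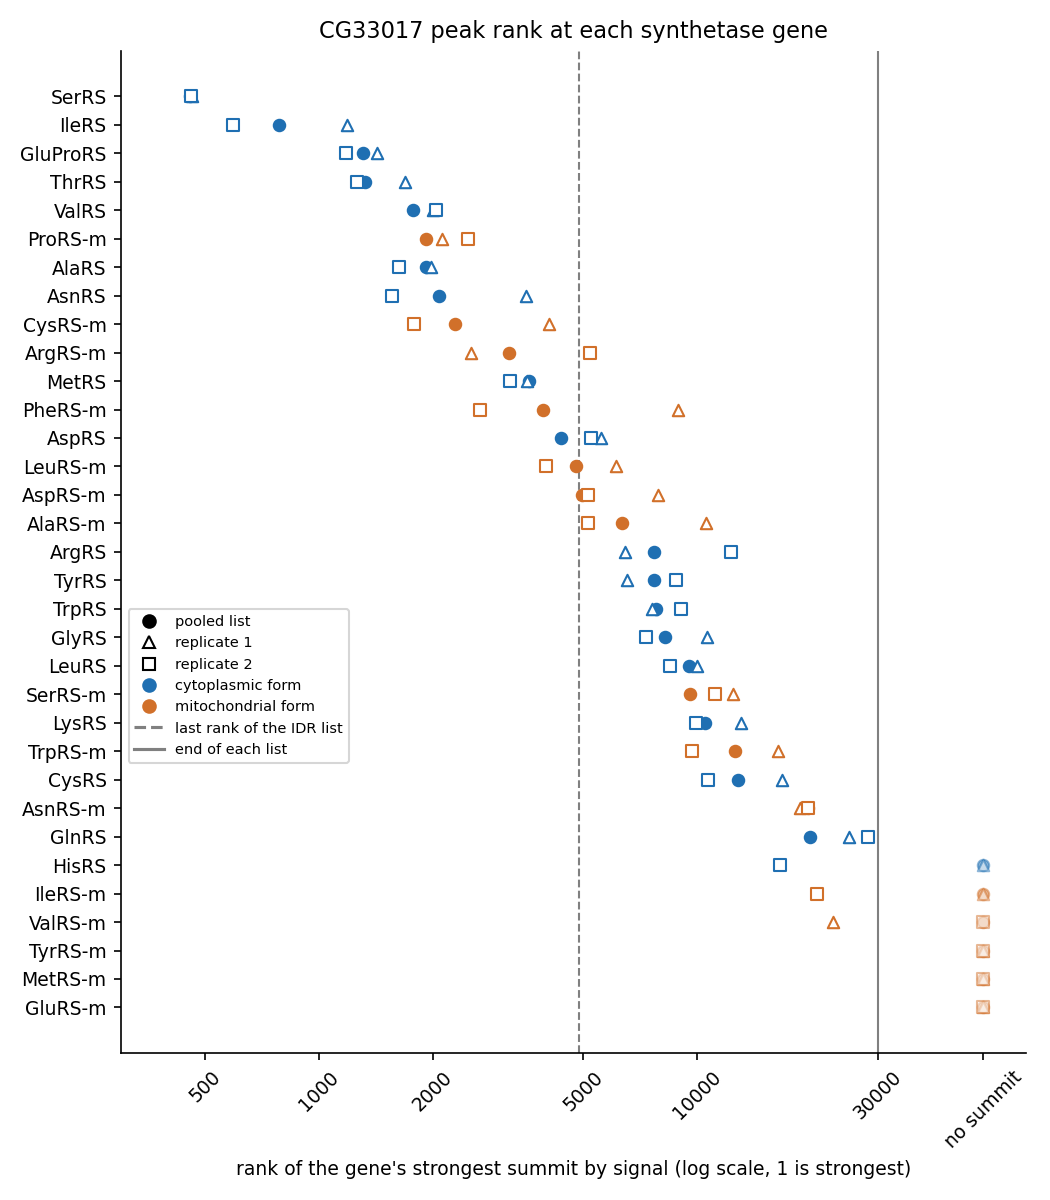
Rank of the peak at each synthetase gene in the pooled list and in the lists of replicates 1 and 2 (log axis, rank 1 is the highest signal), with cytoplasmic and mitochondrial forms in separate colours the length of the IDR list (4867) as a dashed line, the end of each list (30000) as a solid line and genes without a summit at the right edge. SerRS sits between rank 456 and rank 462 in all 3 lists, while PheRS-m runs from rank 2658 to rank 8891.

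Over the 14 bound synthetase genes, the larger replicate rank was at the median 1.28 times the smaller, and 4 genes (ArgRS-m, AsnRS, CysRS-m and PheRS-m) had ranks more than 2 times apart. The rank was nearer the top in replicate 2 for 11 of the 14. These rank counts were not made over all bound genes. In the whole replicate lists, the median rank over all bound protein-coding genes was 7273 in replicate 1 and 6607 in replicate 2. Replicate summits were 1 to 129 bp apart with a median of 27 bp, which was likewise not measured over all bound genes. The closest pairs were at ArgRS-m and PheRS-m, each 1 bp apart, and the widest were at LeuRS-m (127 bp) and AspRS (129 bp). PheRS-m therefore shared the steadiest position with ArgRS-m and had the least steady rank of the 14. The bound synthetase genes had a median signal of 187.7 (range 106.2 to 455.3) and a median rank of 1995.5, beside 182.3 and 2088.5 over all 3314 bound protein-coding genes. Their median was thus near that of all bound genes, while the median over all IDR peaks was lower, at 165.7. It was 201.5 for cytoplasmic and 139.7 for mitochondrial forms.

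A further 13 synthetase genes, 8 cytoplasmic and 5 mitochondrial forms, were in the pooled list and not in the IDR list, as were 5241 of the 13945 protein-coding genes, a similar share. The nearest to the threshold was AspRS-m, with a pooled signal of 103.6 at rank 4970, beside 106.2 at rank 4784 for LeuRS-m just inside. Its ranks were 7895 and 5137 in the replicates, whose summits were 4 bp apart. AlaRS-m followed at pooled rank 6306. A group of cytoplasmic forms, ArgRS, TyrRS, TrpRS and GlyRS, lay between rank 7697 and rank 8190, and LeuRS, SerRS-m and LysRS between rank 9481 and rank 10477. TrpRS-m and CysRS were at ranks 12580 and 12775. AsnRS-m and GlnRS were lowest, at ranks 19670 and 19809. All 13 were also in both whole replicate lists, with replicate summits 4 to 185 bp apart. At 9 of the 13 another gene also had a TSS within 500 bp of the pooled summit. At 6 the other gene's TSS was nearer to the summit than the synthetase's. These counts were not made over all pooled-only genes.

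The remaining 6 synthetase genes had no pooled summit within 500 bp. HisRS, the histidine enzyme and the only cytoplasmic form among them, had a weak summit in replicate 2 alone (rank 16527), 31 bp downstream of its TSS, and its nearest pooled summit was 643 bp away at rank 5955. IleRS-m was listed in replicate 2 alone (rank 20734) and ValRS-m in replicate 1 alone (rank 22829, 487 bp downstream of the TSS). GluRS-m, MetRS-m and TyrRS-m, the other 3 mitochondrial forms, were in no list. Their nearest pooled summits were 2346 bp, 6276 bp and 2468 bp away. GluRS-m lies just downstream of TyrRS on the same strand. Absence from a list says only that no summit there was among the 30000 peaks it holds, at a depth that is unknown.

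Of the amino acids, 14 had a gene of each form, which allows a comparison within the amino acid. GluProRS stands as the cytoplasmic gene of both glutamate and proline, so its summit is counted for both. In the IDR list both forms were bound for 1 of them, proline, through GluProRS and ProRS-m. The cytoplasmic form alone was bound for 8 amino acids, the mitochondrial form alone for 3 (arginine, cysteine and leucine), and neither form for 2 (tryptophan and tyrosine). In the pooled list both forms were bound for 9 amino acids and the cytoplasmic form alone for 5. The mitochondrial form alone could not occur there, since the cytoplasmic gene of each of the 14 amino acids had a pooled summit. The symbol rule gives no RS-m gene for glutamine, glycine, histidine, lysine and threonine, and gives PheRS-m as the only phenylalanine gene. Whether the genes without an RS-m partner also serve the mitochondrion cannot be told from their symbols.

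The synthetase summits lay upstream of genes, mostly between a pair of start sites. Of the 14 IDR summits, 13 (92.9%) were upstream of the synthetase TSS, beside 80.7% of the bound protein-coding genes. The median offset was 119 bp upstream for the synthetase genes and 119 bp upstream for all. It was 186 bp for cytoplasmic and 85 bp for mitochondrial forms. By annotation, 11 summits were intergenic, and those of SerRS, AlaRS and AspRS were in a 5′ UTR, a 3′ UTR and an intron. These classes were not counted over all bound genes. The peak interval was 404 bp wide at 11 genes and narrower at SerRS (268 bp), ThrRS (183 bp) and IleRS (135 bp). These widths were not counted over all IDR peaks, and 404 bp was also the width of the weak pooled peak at GlnRS. They changed between lists: the replicate peaks were 384 bp in both replicates at IleRS, and 287 bp and 117 bp at SerRS.

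At 12 of the 14 summits another gene on the opposite strand also had a TSS within 500 bp. This count was not made over all promoter summits. Counted by gene, an opposite-strand TSS of another gene lay within 500 bp upstream of 11 of the 14 bound synthetase genes. The same held for 1712 of the 3314 bound protein-coding genes, so the layout is common among bound genes. The neighbours at the 12 summits were CG17260 (SerRS), Hem (IleRS), AP-1sigma (GluProRS), Patsas (ThrRS), Kdm4B (ValRS), Snup and CG42304 (ProRS-m), DCTN6-p27 (AsnRS), O-fut1 (CysRS-m), CG17816 (ArgRS-m), CG15084 (MetRS), Nmda1 (AspRS) and Dhc64C (LeuRS-m). Their known work is varied. Hem is part of a complex that promotes actin branching, AP-1sigma is a clathrin adaptor subunit, Kdm4B is a histone demethylase, O-fut1 adds fucose to Notch and Dhc64C is the cytoplasmic dynein heavy chain. The partner's TSS was nearer to the summit than the synthetase's at 6 genes, AspRS, GluProRS, LeuRS-m, MetRS, ProRS-m and ValRS. If each summit was given to the gene of the nearest TSS only, 8 synthetase genes (24.2%) kept an IDR summit, beside 17.9% of all protein-coding genes. Binding at a shared start region cannot be assigned to either gene from these lists.

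**Figure D3:**
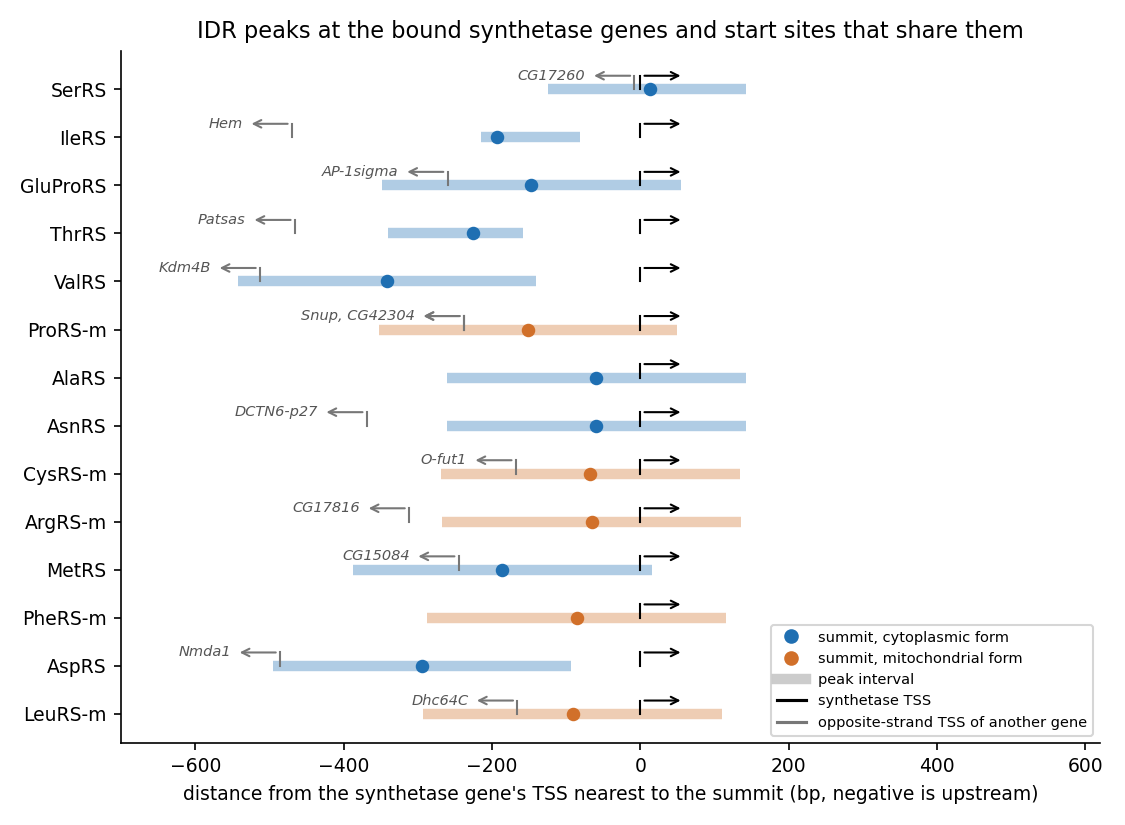
IDR peak intervals (bars) and summits (points) at the 14 bound synthetase genes, by distance in bp from the synthetase TSS nearest to the summit (negative is upstream), with start sites of other genes on the opposite strand as grey arrows. All summits but that of SerRS lie upstream, and all but AlaRS and PheRS-m share the window with another start site.

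Head-to-head arrangement was counted over all synthetase genes, bound and unbound. An opposite-strand TSS belonging to another gene lay within 500 bp upstream of 21 of the 33 (63.6%), of 14 cytoplasmic forms (77.8%) and of 7 mitochondrial forms (46.7%). Over all protein-coding genes the share was 29.6%. Such genes were bound more often in general: 41.4% of divergent protein-coding genes had an IDR summit and 16.3% of the others. Among the synthetase genes the shares were 11 of 21 (52.4%) and 3 of 12 (25%). By form, the cytoplasmic forms were bound in 7 of 14 divergent and 2 of 4 other genes (50% of each). The mitochondrial forms were bound in 4 of 7 (57.1%) and 1 of 8 (12.5%). ValRS is counted among the 4 other cytoplasmic genes, although its summit lay between its own TSS (341 bp) and the opposite-strand TSS of Kdm4B (172 bp). The split of the cytoplasmic forms thus depends on how this gene is classed, and a difference between the forms was not tested. Within each class the share of all synthetase genes was thus closer to its background than in the comparison over all genes of 42.4% with 23.8%. A summit in a shared start region is credited here to every gene in reach, so the rule itself favours divergent genes. What part of the count goes with head-to-head arrangement was not tested.

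The synthetase genes are spread over 5 of the 6 arms. Arm 2L had 4 of its 6 synthetase genes in the IDR list, beside 24.0% of its protein-coding genes, and 2R had 5 of 8, beside 25.3%. The counts were nearer to the background on 3L, with 3 of 10 beside 25.9%, and on 3R, with 2 of 6 beside 25.8%. The X chromosome had 3 synthetase genes, ArgRS, HisRS and LysRS, and none had an IDR summit. The share of all protein-coding genes on X with an IDR summit was 15.8%, the lowest of the 6 arms.

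The summits of the synthetase genes were poor in G and C. In windows of 101 bp the median GC content was 28.2% (15.8% at CysRS-m to 47.5% at PheRS-m), against 35.6% over the 2967 promoter summits of the IDR list and 31.7% over 1084 summits at divergent genes. ProRS-m (19.8%), GluProRS (20.8%) and ValRS (22.8%) followed CysRS-m, and LeuRS-m (44.6%) was next to PheRS-m. The promoters themselves, taken as 250 bp before to 50 bp after the canonical TSS, differed less, with a median of 35.7% for synthetase genes and 38.0% for all. Whether base composition goes with the signal was not tested.

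Of the motifs searched, CAGCTG had the widest gap between the promoters of synthetase genes and all promoters, counted over bound and unbound genes together. CAGCTG, a palindrome and the core of core promoter motif 5, an E-box, was in 16 of the 33 promoters (48.5%) and in 17.9% of all 13944 protein-coding promoters. The share was 9 of 18 for cytoplasmic forms (50%) and 7 of 15 for mitochondrial forms (46.7%). In divergent promoters it was 11 of 21 (52.4%) against 24.4% of all divergent genes, and in the others 5 of 12 (41.7%) against 15.2%. Of the 20 matches, 10 (50%) began in the 100 bp before the TSS, as did 42.8% of the 2817 matches over all promoters. The examples below show the 6 letters in capitals with neighbouring bases, 30 bases each, from the strand of the gene in dm6. They cover a bound gene (IleRS) and a pooled-only mitochondrial form (TrpRS-m).
IleRS (chr3L:22288574-22288603, plus strand): cagtgctgtcgtCAGCTGattatcaaggat
TrpRS-m (chr3L:17849688-17849717, plus strand): tatcactgttcaCAGCTGtcgtaccggctt
Of the 16 synthetase genes with CAGCTG, 6 had an IDR summit, and of the 17 without it, 8 had one. The matching counts over all protein-coding promoters were not made, and whether CAGCTG goes with binding was not tested. Within 100 bp of the summit itself the letters were present at 2 of the 14 bound genes (14.3%), ArgRS-m and MetRS, beside 11.8% of all promoter summits.

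The other motifs, searched on both strands, gave smaller differences in promoters. At the summits the TATA letters, GAGAG, the DRE, CACGTG and, slightly, GGTCACAC differed more than CAGCTG did. The DRE, TATCGATA, was in 5 of 33 promoters (15.2%; 8.94% of all), and in 2 of the 14 summit windows (14.3%; 5.06% of all), those of AlaRS and PheRS-m, the bound genes with no opposite start site in reach. The motif 7 core (CAGCNCTA, CAGCNCTG, CATCNCTA or CATCNCTG) was in 10 promoters (30.3%; 18.7% of all) and at 14.3% of the summits against 15.5%. TATAAA was in 18 promoters (54.5%; 45.3% of all) and at 8 of the 14 summits (57.1%; 36.4% of all). GAGAG was less frequent than in all promoters (18.2% against 30.2%) and was at 1 of the 14 summits, AsnRS (7.14% against 27.6%). GGTCACAC, the core of motif 1, was in 3 promoters (9.09%, beside 7.54% of all) and CACGTG, another E-box, in 2 (6.06%, beside 4.26% of all). Each was at 1 of the 14 summits (7.14%), GGTCACAC at ProRS-m (4.45% of all) and CACGTG at LeuRS-m (2.63% of all). TGATGNAA, the core of the element read by ATF4 in the amino acid response of mammals, was in 1 promoter, CysRS (3.03%; 3.99% of all), and at none of the 14 summits (2.26% of all). These counts describe letters and not sites in use.

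**Figure D4:**
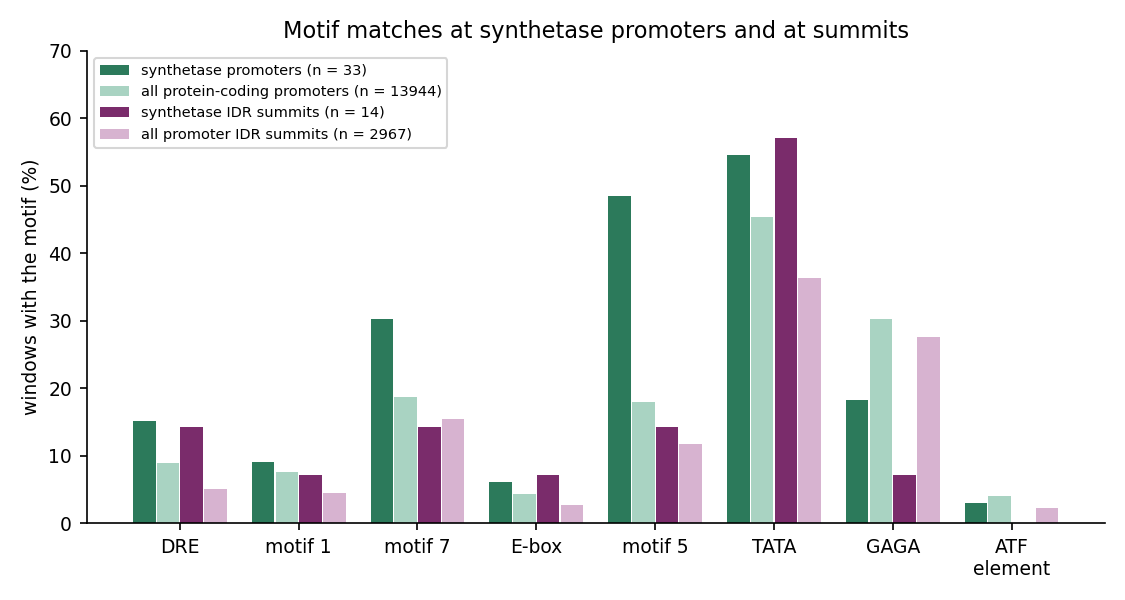
Share (%, axis from 0) of windows holding each motif (motif 5 is CAGCTG, E-box is CACGTG), in promoters of synthetase genes (33) beside all protein-coding promoters (13944), and around IDR summits of synthetase genes (14) beside all promoter summits (2967). CAGCTG was in 48.5% of synthetase promoters and 17.9% of all, but at 14.3% and 11.8% of the summits.

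Genes that work with the synthetases were read from short lists in the same way, and their counts stand beside a background of 23.8% of protein-coding genes in the IDR list and 61.3% in the pooled list. Of the synthetase genes that the symbol rule leaves out, Slimp, a mitochondrial relative of seryl-tRNA synthetase, had an IDR summit (signal 123.9, rank 3825). The subunits of the cytoplasmic phenylalanine enzyme, alpha-PheRS and beta-PheRS, were in the pooled list alone at ranks 6270 and 6381. AIMP1, AIMP2 and AIMP3, scaffold proteins of the multi-synthetase complex in animals, were all in the pooled list and none was in the IDR list. Of the subunits of the amidotransferase that makes glutaminyl-tRNA in mitochondria, GatA had a signal of 399.4 at rank 558, above every synthetase gene except SerRS, GatC had 114 at rank 4320 and GatB was in the pooled list alone at rank 13621.

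Of 6 genes that act in the response to amino acid shortage and related stress, 2 were bound, a count near the background of 23.8%. Thor, the translation repressor 4E-BP, had a signal of 333.1 at rank 763, and crc, the fly ATF4, had 166 at rank 2426. Gcn2, the kinase that senses uncharged tRNA, had no pooled summit. Of 11 genes for tRNA maturation and modification, all were in the pooled list and 3 were in the IDR list, among them RNaseZ, which trims tRNA 3′ ends (signal 239.4, rank 1326), and wuho, a tRNA methyltransferase subunit (signal 122.3, rank 3909). The IDR count too is near the background of 23.8%, while the pooled count stood above its background of 61.3%, a difference that was not tested. Of 4 elongation factor genes that deliver charged tRNA to the ribosome, eEF1alpha1 was the bound one (signal 236, rank 1359), again a share near 23.8%.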

How the data were processed

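CG33017-GFP ChIP-seq was made in whole adult males, with 2 biological replicates of 1 group, per the labels. Per the text deposited with the samples, the authors called peaks on each replicate against a control alignment shared by both, then on the pooled replicates, and derived the final list by an IDR threshold. For the aligner, the caller and the threshold, names and versions were not given in the sources used here. Per the lists themselves, a deposited peak has the authors' signal, a q-value as −log10 (not used here) and a summit offset. Depth is unknown.

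Summits (start plus offset) were placed on Ensembl release 115 of BDGP6 with Python 3.11.15, numpy 2.4.6 and pandas 2.3.3, leaving out transposable elements. Figures used matplotlib 3.10.9. All 33 genes had the same ends in RefSeq. The procedure was tested on simulated data. Shares over replicates used the 4867 strongest peaks of each. No test over genes was run, since the members and lists were chosen with earlier results of these data known. Named genes were the synthetases, genes sharing their summits and the related lists. Of these, 1 gene is not reported here. Alternatives changed the window, peak position, start sites, gene assignment and peak list.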

Additional observations from a re-analysis of the deposited data

How the results depend on the processing

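The count of 14 synthetase genes in the IDR list (9 cytoplasmic, 5 mitochondrial) stayed between 10 and 14 with windows of 250 or 1000 bp, midpoints, peak intervals over a TSS, canonical or protein-coding start sites, or either replicate's top peaks alone. It moved to 8 (5 and 3) with the nearest TSS only, losing AspRS, GluProRS, LeuRS-m, MetRS, ProRS-m and ValRS. In the higher-signal part of the list it was 9, with 2 mitochondrial forms. Requiring the interval to overlap a TSS gave 5 cytoplasmic (27.8%) and 5 mitochondrial forms (33.3%), which turns their order. All protein-coding genes fell from 3314 to 2177 with that rule and to 1898 in the higher-signal part. The mitochondrial count was 3 to 4 over the replicates left out: 3 without replicate 2, which loses LeuRS-m and PheRS-m, and 4 without replicate 1, which loses ArgRS-m. AspRS dropped out in both cases. With the nearest TSS only, the pooled count was 17 (51.5%) and the replicate 2 count 18 (54.5%). For these lists the share of all genes under that rule was not counted. The share of all genes was 13.6% in the higher-signal part, against 27.3% of synthetase genes, and 15.6% against 30.3% with intervals. It was 19.8% against 36.4% with the 250 bp window and 20.9% against 39.4% with canonical start sites. With the 1000 bp window the share of all genes rose from 23.8% to 27.1%, while that of synthetase genes stayed at 42.4%. No paired analysis was possible because there is 1 group. Unknown depth and the lack of an untagged sample here limit every count.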
